A study of Homo sapiens with 6 samples.

Results

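The semaphorins, plexins and neuropilins are the ligands and receptors of a guidance system, first described in growing axons, that also steers the shape and movement of other cells. They were taken here as the protein-coding genes whose symbols begin with SEMA3 to SEMA7, PLXN or PLXDC, or read NRP1 or NRP2, which gave 33 of the 58870 genes in the count table: 20 semaphorins, 9 plexins, 2 neuropilins and 2 plexin domain containing (PLXDC) genes. Their RNA was measured in WM164, a human melanoma line, in 3 libraries labelled GFP and 3 labelled T-MGM, to ask what a tethered MAFG and MITF dimer changes. The GFP libraries came from cells carrying a lentiviral vector for green fluorescent protein, and the T-MGM libraries from cells carrying the dimer, in which the melanocyte isoform of MITF, a basic helix-loop-helix leucine zipper factor, is joined by a flexible linker to MAFG, a small MAF protein. The study's methods give these vectors the EF1α promoter and blasticidin selection, so expression was constitutive and came from a selected population, and all 6 libraries came from cells grown in RPMI with fetal bovine serum and antibiotics. Nothing in the descriptions says that the 3 libraries of a group came from separate cultures, so p-values measure the spread between these libraries, which may be technical.

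Semaphorins bind plexins, large single-pass receptors whose cytoplasmic part acts on small GTPases of the Rap and R-Ras type and, in the B class, recruits activators of RhoA. Class 3 semaphorins are secreted and most of them need a neuropilin as a co-receptor beside a class A plexin, whereas classes 4 to 6 span the membrane and class 7 is held by a lipid anchor. Neural crest cells, the embryonic source of melanocytes, use class 3 semaphorins and neuropilins to find their paths, and SEMA3B and SEMA3F, which lie close together on the short arm of chromosome 3, are known as candidate tumour suppressors.

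Read counts summed to between 35057239 and 38738065 in the GFP libraries and between 44577774 and 59250663 in the T-MGM libraries, and levels are given below as counts normalised for this depth or as TPM, a share of all transcripts that also allows for transcript length. The melanocytic markers MITF, SOX10, PMEL, MLANA, TYR and DCT (6 of 6) had group means of at least 1 TPM, their sum lying between 963.87 and 976.92 TPM in GFP libraries and between 831.21 and 864.94 TPM in T-MGM libraries. None of 4 endothelial, 2 keratinocyte and 3 leukocyte markers reached 1 TPM in either group, and of 3 fibroblast markers only LUM did, at 3.59 TPM in GFP against 4.85 TPM in T-MGM. The gene counts did not check the labels. MAFG had a mean of 2458 normalised counts in GFP against 2358 in T-MGM (log2 fold change -0.06, DESeq2 adjusted p = 0.24). MITF had a mean of 19161 in GFP against 20270 in T-MGM, a small rise (log2 fold change 0.08, DESeq2 adjusted p = 4.8e-07). Whether the count of either gene includes reads of the construct was not tested, and directions below rest on the labels alone.

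Most of the family was higher in the libraries labelled T-MGM, and the largest changes among genes with at least 100 normalised counts in one group were in SEMA3B, PLXNA4, SEMA3A and SEMA6B. DESeq2 gave an adjusted p to 31 of the 33 genes, and 23 of these were at or under 0.05, 19 of them higher and 4 lower in T-MGM; of these 23, only PLXNB3 changed sign under another setting, in the deposited TPM. In bulk RNA, a change in the number of cells that express a gene and a change in the RNA per cell cannot be told apart. Over all 19135 genes with an adjusted p, 19.2% were past this threshold as higher and 19.2% as lower. A change of more than 2-fold as well, here termed called, was found for 7 members as higher (SEMA3A, SEMA3B, SEMA3G, SEMA4G, SEMA6B, NRP1 and PLXNA4) and for 1 as lower (SEMA4D), against 3.26% of all genes called higher and 1.36% called lower. The median log2 fold change of the 31 members was 0.43, and that of all genes tested was -0.0027.

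Well-counted genes pass such a test more easily, so the same counts were taken over protein-coding genes with a mean of at least 50 normalised counts. Of the 22 members at this level, 17 were past the adjusted p as higher and 3 as lower, and 5 were called higher. The corresponding shares of all 11411 such genes were 28.0% higher, 29.2% lower and 2.63% called higher. Members were richer in G and C than genes in general, with a median GC content of 56.9% against 48.0% over all genes tested. After a correction for GC content and length the members' median was 0.38 and still 23 passed, 18 of them higher and 5 lower. PLXNB3 then lost its difference (log2 fold change 0.0055) and PLXNA1 passed as lower (-0.11). In the deposited TPM with a pseudocount of 1, 21 members could be tested and 11 passed. Their median log2 fold change there was 0.18, and that of the protein-coding genes at this level was -0.14. The shares of all genes that passed after the GC correction or in the TPM were not computed. PLXNA2, PLXNB1, PLXNB3, PLXNC1, SEMA3C, SEMA4B, SEMA4F and SEMA5A missed the threshold there.

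The 3 libraries of one group did not overlap those of the other in 20 members that were higher and 5 that were lower in T-MGM, while 6 of the 31 overlapped; over all genes tested, 46.8% did not overlap in one direction or the other. The plot of normalised counts by library shows this separation for each gene.

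**Figure D1:**
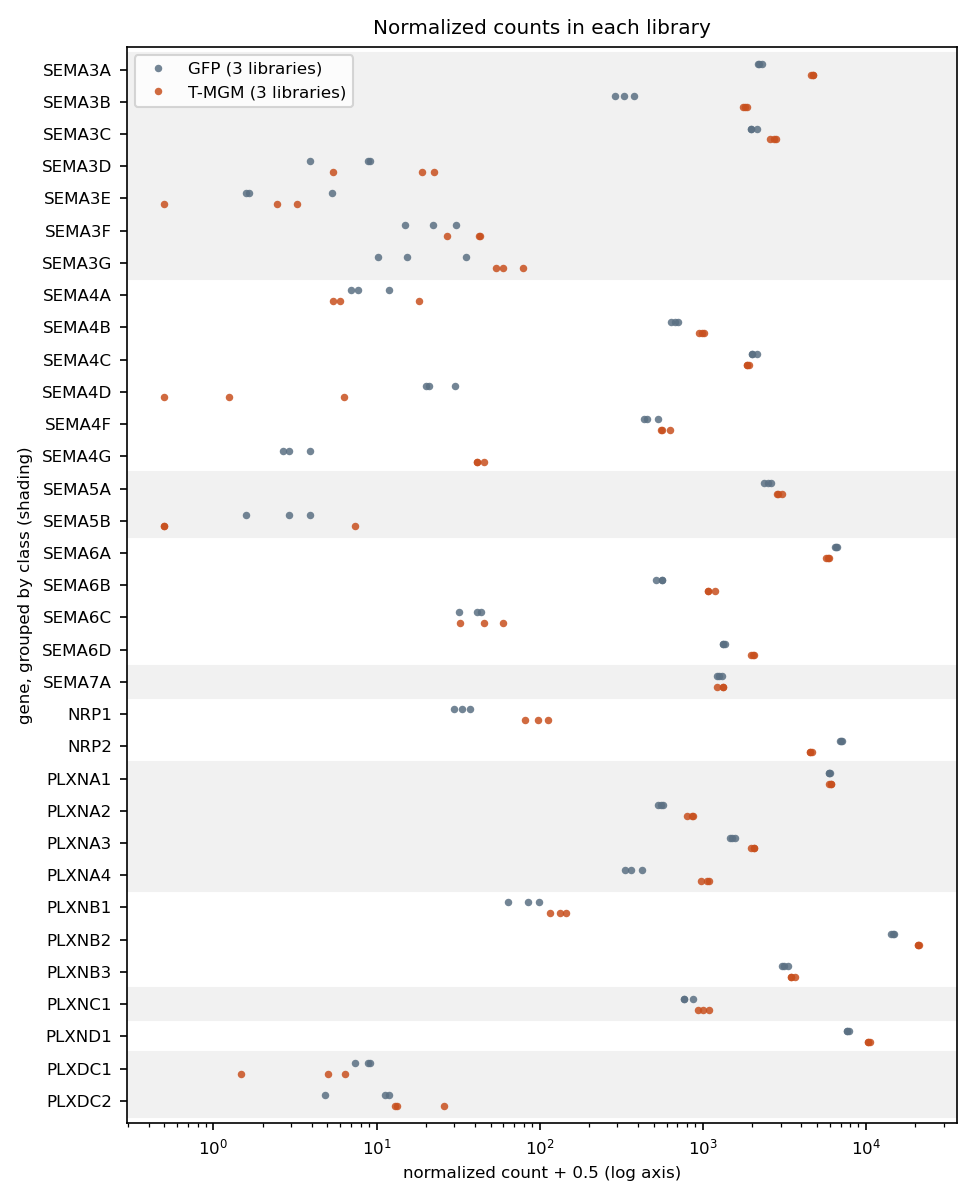
Normalised count plus 0.5 of each of the 33 genes (log axis) in the 3 GFP libraries (grey) and the 3 T-MGM libraries (orange), with shading marking the classes. SEMA3B and PLXNA4 stand well apart between the groups, PLXNA1 and SEMA7A lie on top of one another, and the spread within a group widens for genes under about 10 counts.

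SEMA3B, a secreted class 3 semaphorin, changed most among members with at least 100 normalised counts in one group. It had 379, 288 and 328 normalised counts in the GFP libraries against 1775, 1811 and 1864 in the T-MGM libraries. Every T-MGM library was above every GFP library, a 5.50-fold difference of the fitted means (log2 fold change 2.46 ± 0.07 SE, DESeq2 adjusted p = 1.39e-240). Per transcript length it went from 2.75 ± 0.39 TPM (SD, n = 3) to 13.6 ± 0.11 TPM (SD, n = 3) and moved from the 17th to the 8th place among the 33 genes. SEMA3B (ENSG00000012171.19) lies at chr3:50267558-50277546 on the plus strand of GRCh38 in the GENCODE 44 annotation. It overlaps SEMA3B-AS1 on the opposite strand there, and the limit this sets is given below with SEMA4G.

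Promoter windows of 300 bases, from 250 before to 50 after a RefSeq transcription start (GRCh38.p14), were available for 28 of the 33 genes, 5 of them for SEMA3B. They were searched on both strands for CACGTG and CATGTG (which also reads CACATG), forms of the E-box that MITF binds, for TGCTGA, the flank of the MAF recognition element, and for TGANTCA, its AP-1 type core. The sequences below are the SEMA3B windows with a match and the window of PLXNA4, the next called gene by size at this level, so that the presence or absence of these letters can be read beside the change in RNA. In the first window, on the plus strand at chr3:50259976-50260275, the capitals mark a palindrome, 33 bases before the start, that holds TGACGTCA and, in both orientations, GCTGACGTC. In the second shown, on the plus strand at chr3:50268911-50269210, they mark TGCTGA, 18 bases before the start. The PLXNA4 window, on the minus strand at chr7:132576421-132576720, has no match.
SEMA3B first window: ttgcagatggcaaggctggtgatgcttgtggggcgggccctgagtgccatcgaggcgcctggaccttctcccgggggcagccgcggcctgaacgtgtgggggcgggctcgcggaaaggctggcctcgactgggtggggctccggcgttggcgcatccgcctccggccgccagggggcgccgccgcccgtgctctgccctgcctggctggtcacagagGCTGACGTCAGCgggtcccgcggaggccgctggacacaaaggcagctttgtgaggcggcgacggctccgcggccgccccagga
SEMA3B second window: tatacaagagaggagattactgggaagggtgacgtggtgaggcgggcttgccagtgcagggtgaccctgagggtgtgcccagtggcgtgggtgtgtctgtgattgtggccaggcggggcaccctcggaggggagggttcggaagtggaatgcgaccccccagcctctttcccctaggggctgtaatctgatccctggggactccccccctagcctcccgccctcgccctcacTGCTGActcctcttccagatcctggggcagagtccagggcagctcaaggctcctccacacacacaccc
PLXNA4 window: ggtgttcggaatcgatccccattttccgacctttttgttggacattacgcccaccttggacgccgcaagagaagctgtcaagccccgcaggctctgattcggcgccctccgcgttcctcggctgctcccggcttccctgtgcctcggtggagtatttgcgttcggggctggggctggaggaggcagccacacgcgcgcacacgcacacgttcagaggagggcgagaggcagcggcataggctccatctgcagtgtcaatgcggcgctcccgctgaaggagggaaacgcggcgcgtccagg

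TGACGTCA, the cyclic AMP response element core that is also the longer core of a MAF site, and GCTGACGTC were searched only after these sequences had been read, so their match in SEMA3B is a description of why they were searched. TGACGTCA stood in windows of 2 members, SEMA3B and SEMA4C, or 7.14% of the 28, against 2.25% of all 27305 genes with a window. TGCTGA stood in 10 members (35.7%, against 20.5% of all genes). These were SEMA3B, SEMA3C, SEMA3D, SEMA3E, SEMA4A, SEMA4B, SEMA4D, SEMA5B, SEMA6D and PLXNC1. Of them, SEMA3D and SEMA4A did not pass the adjusted p, and SEMA3E and SEMA5B received none. CACGTG stood in 3 members (10.7% against 8.77%), SEMA3E, SEMA4D and SEMA6D. CATGTG stood in 6 (21.4% against 13.4%), NRP2, PLXNB2, SEMA3E, SEMA3F, SEMA3G and SEMA4A. TGANTCA stood in 1 member, PLXNC1 (3.57% against 9.37%). Members had more windows per gene, 49 for the 28 members against 35116 for the 27305 genes. Per window, CACGTG stood in 6.12% of those of members against 7.26% of all, and CATGTG in 14.3% against 11.1%. By the same measure TGCTGA stood in 24.5% against 17.3%, TGANTCA in 2.04% against 7.71% and TGACGTCA in 4.08% against 1.85%. The first SEMA3B start lies upstream of the gene's GENCODE 44 span, and gene counts do not tell which start was used. The PLXNA4 window lies inside the span of PLXNA4, whose upstream end is at chr7:132648688, and no window at that end was searched.

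Of the other 6 secreted semaphorins, SEMA3A, SEMA3C and SEMA3G passed as higher. SEMA3A, the classic repellent of axons that acts through neuropilin-1, had 2300, 2223 and 2182 normalised counts in GFP libraries against 4769, 4634 and 4729 in T-MGM libraries (log2 fold change 1.08 ± 0.03 SE, adjusted p = 2.75e-223). The groups were far apart compared with the spread within them. At 11.2 ± 1.4 TPM (SD, n = 3) in GFP, SEMA3A lay below SEMA3C (13.6 TPM). At 18.0 ± 0.45 TPM (SD, n = 3) in T-MGM, SEMA3A was the most abundant class 3 gene of that group. In the TPM settings its log2 fold change was 0.65 to 0.69, which passed the adjusted p but not the 2-fold limit. SEMA3C, which acts through both neuropilins, had 2138, 1972 and 1974 normalised counts in GFP against 2825, 2599 and 2742 in T-MGM (log2 fold change 0.43 ± 0.04 SE, adjusted p = 1.15e-21). These groups did not overlap either, but the difference in the deposited TPM was small, from 13.6 to 14.9 TPM.

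SEMA3G, a ligand of neuropilin-2 known from endothelium, was counted far less, in libraries where the 4 endothelial markers summed to at most 0.35 TPM. It had 29, 9 and 13 raw counts in GFP libraries against 59, 80 and 80 in T-MGM libraries (log2 fold change 1.70 ± 0.38 SE, adjusted p = 4.74e-05). Without GFP replicate 1, the highest of its group, the log2 fold change was 2.37. SEMA3D and SEMA3F missed the threshold at these low counts (SEMA3D log2 fold change 1.15 ± 0.71 SE, SEMA3F 0.73 ± 0.40 SE), their groups overlapped, and SEMA3E, with 0 to 4 raw counts per library, received no adjusted p. The class 3 genes summed to 27.9 ± 2.6 TPM (SD, n = 3) in GFP against 47.1 ± 0.97 TPM (SD, n = 3) in T-MGM, that is from 7.87% to 11.9% of the TPM of all 33 genes.

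**Figure D2:**
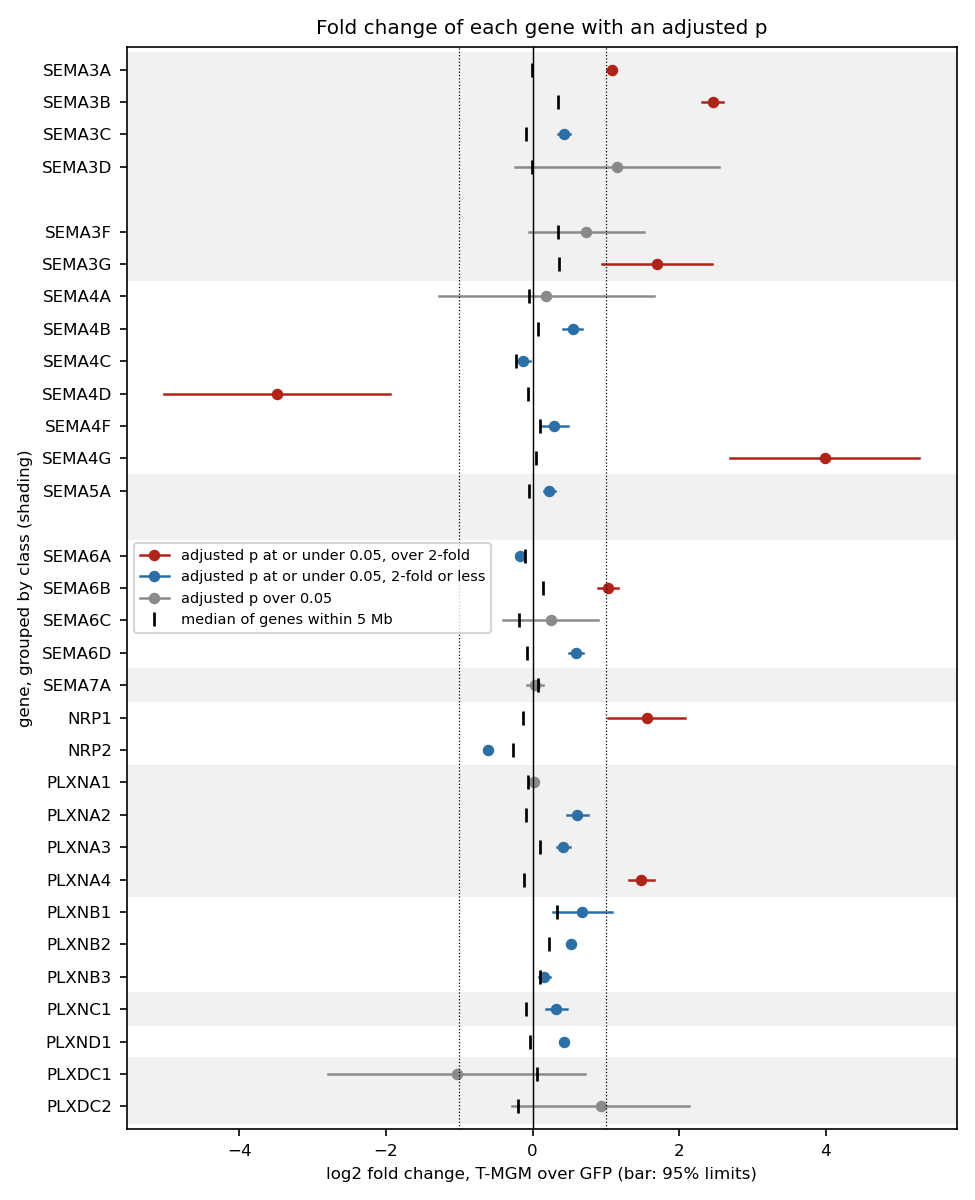
Log2 fold change of T-MGM over GFP with its 95% limits for the 31 genes with an adjusted p, grouped by class (shading). Black ticks give the median log2 fold change of genes within 5 Mb. SEMA4G and SEMA3B lie farthest to the right, SEMA4D farthest to the left, and 26 of the 31 points lie to the right of their tick.

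Class 4 semaphorins, membrane proteins that signal mainly through B class and D class plexins, moved in both directions and their summed level was nearly level, 20.0 TPM in GFP against 19.8 TPM in T-MGM. SEMA4D, the ligand of plexin-B1 that was first known from lymphocytes, was the one member called lower. It had 17, 18 and 26 raw counts in GFP libraries against 0, 6 and 1 in T-MGM libraries. The groups did not overlap, the fitted log2 fold change was -3.48 ± 0.79 SE (adjusted p = 4.59e-05), and the depth-adjusted ratio of the summed counts was 11.5 in favour of GFP with an exact 95% interval, for counting error only, of 5.26 to 29.8. The size depends on single libraries: it was -5.83 without T-MGM replicate 2 and -2.91 without T-MGM replicate 1. SEMA4D was at 0.14 TPM in GFP, so this was a low transcript in both groups; the 3 leukocyte markers summed to at most 0.12 TPM in any library.

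SEMA4G, a little-studied class 4 gene, had the largest positive log2 fold change of the family. It had 2, 2 and 3 raw counts in GFP libraries against 45, 46 and 55 in T-MGM libraries, at most 0.39 TPM. The fitted log2 fold change was 3.99 ± 0.66 SE (adjusted p = 9.59e-09). The depth-adjusted ratio of summed counts was 15.8 with an exact 95% interval, for counting error only, of 7.48 to 40.0. SEMA4G overlaps MRPL43, a mitochondrial ribosomal protein gene on the opposite strand with a mean of 1659 normalised counts in GFP against 1888 in T-MGM (log2 fold change 0.19). The descriptions disagree on whether the libraries kept strand, and if they did not, reads of overlapping parts cannot be told apart. The same limit holds for each of the 20 among the 33 genes that overlap a gene on the opposite strand. Of the called members these are SEMA3B, SEMA4D, SEMA4G, NRP1 and PLXNA4, while SEMA3A, SEMA3G and SEMA6B have no such overlap.

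Among the better-counted class 4 genes, SEMA4C, a ligand of plexin-B2, had 2019, 2013 and 2146 normalised counts in GFP against 1866, 1863 and 1927 in T-MGM. Its groups were separate but close, with a log2 fold change of -0.13 ± 0.04 SE (adjusted p = 0.011), and its adjusted p rose to 0.13 without GFP replicate 3, 0.054 without T-MGM replicate 1 and 0.056 without T-MGM replicate 2. SEMA4B and SEMA4F rose, by log2 fold changes of 0.55 ± 0.07 SE and 0.30 ± 0.09 SE; the adjusted p of SEMA4F was 0.069 without GFP replicate 2 and 0.078 without T-MGM replicate 3. SEMA4A had 6, 6 and 10 raw counts in GFP against 6, 5 and 24 in T-MGM, where 1 library set the direction: the log2 fold change was 0.19 with it and -0.69 without T-MGM replicate 3.

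SEMA6B, a transmembrane ligand of class A plexins, had 565, 565 and 516 normalised counts in GFP libraries against 1082, 1197 and 1084 in T-MGM libraries (log2 fold change 1.03 ± 0.07 SE, adjusted p = 9.26e-45). No library of one group came near the other, but the change stood at the 2-fold limit and fell just under it without GFP replicate 3 (0.99), without T-MGM replicate 2 (0.98), with library totals as scaling (0.98) and after the GC correction (0.85), and it was 0.69 to 0.83 in the TPM settings. SEMA6A, the most abundant semaphorin at 26.8 ± 1.7 TPM (SD, n = 3) in GFP and itself a ligand of plexin-A2 and plexin-A4, had 6495, 6600 and 6650 normalised counts in GFP against 5717, 5877 and 5929 in T-MGM (log2 fold change -0.17 ± 0.02 SE, adjusted p = 3.66e-11). It fell slightly while SEMA6D, a ligand of plexin-A1, rose (0.59 ± 0.05 SE), and SEMA5A, which binds plexin-B3, rose by 0.23 ± 0.04 SE. The class 6 sum stayed at 37.2 TPM in GFP against 37.0 TPM in T-MGM. SEMA7A, the anchored ligand of plexin-C1 and of integrins, gave 0.03 ± 0.05 SE and SEMA6C 0.24 ± 0.33 SE, neither past the threshold and both with overlapping groups; SEMA5B, with 0 to 7 raw counts per library, received no adjusted p.

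On the receptor side the neuropilins moved in opposite directions, from very different levels. NRP2, co-receptor for SEMA3C, SEMA3F and VEGF-C, was the second most abundant member in GFP. It had 7051, 6980 and 7149 normalised counts in GFP libraries against 4564, 4578 and 4698 in T-MGM libraries (log2 fold change -0.61 ± 0.03 SE, adjusted p = 1.45e-127). It went from 54.2 ± 1.7 TPM (SD, n = 3) to 32.4 ± 1.0 TPM (SD, n = 3), and from the 2nd to the 4th place in the family.

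NRP1, the co-receptor for SEMA3A and VEGF-A, was counted far less. It had 31, 27 and 29 raw counts in GFP libraries against 107, 83 and 152 in T-MGM libraries (log2 fold change 1.55 ± 0.27 SE, adjusted p = 5.33e-08). The counts of the groups were well apart, but the deposited TPM overlapped, at 0.70, 0.24 and 0.16 in GFP against 0.48, 0.38 and 0.71 in T-MGM, and limma on log2(TPM + 1) gave 0.17 with an adjusted p of 0.58. The reason for this difference between counts and TPM was not tested. With NRP2 so much more abundant, the summed neuropilin level fell from 54.6 TPM in GFP to 32.9 TPM in T-MGM, from 15.4% to 8.33% of the family's TPM.

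**Figure D3:**
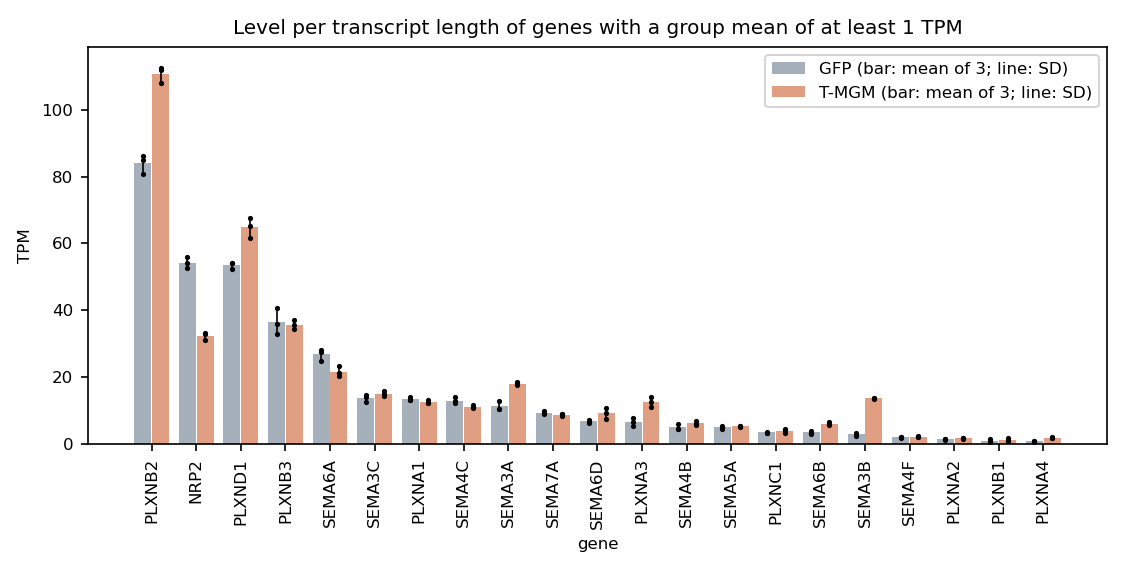
Deposited TPM of the members with a group mean of at least 1 TPM, in order of the GFP mean (bar, mean of 3 libraries; line, SD; dots, libraries). PLXNB2 was highest in both groups, NRP2 was lower and SEMA3A, SEMA3B and PLXNA3 were higher in T-MGM, and PLXNB3 and PLXNA1 overlapped between the groups.

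Of the 9 plexins, 8 were past the adjusted p, each of them higher in T-MGM in counts (PLXNB3 turned to -0.03 in TPM, where the median gene was also below 0), and 1 of these was called. PLXNA4, a class A receptor that pairs with neuropilin-1 for SEMA3A, had 362, 424 and 331 normalised counts in GFP libraries against 979, 1091 and 1057 in T-MGM libraries (log2 fold change 1.48 ± 0.09 SE, adjusted p = 3.07e-65). Its groups were far apart in TPM also, at 0.70 ± 0.12 in GFP against 1.78 ± 0.18 in T-MGM (SD, n = 3), although it remained one of the less abundant plexins, and with TPM + 1 its log2 difference was 0.71, under the 2-fold limit. PLXNA2 rose by 0.61 ± 0.07 SE. PLXNA3, the plexin that pairs with neuropilin-2 for SEMA3F, rose by 0.42 ± 0.05 SE in counts, whereas in the deposited TPM it went from 6.44 ± 1.2 to 12.4 ± 1.5 (SD, n = 3), a log2 difference of 0.86 on log2(TPM + 1). PLXNA3 overlaps LAGE3 on the opposite strand, which gave a log2 fold change of -0.09. PLXNA1 differed by less than the test could separate (0.02 ± 0.02 SE, with a 95% interval from -0.02 to 0.07), and its sign turned with library totals as scaling, after the GC correction and in the TPM, where the median gene was lower still.

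PLXNB2, the receptor for SEMA4C and for angiogenin, was the most abundant member in both groups. It had 14936, 14345 and 14694 normalised counts in GFP libraries against 20870, 21277 and 20993 in T-MGM libraries (log2 fold change 0.52 ± 0.02 SE, adjusted p = 6.95e-195). In TPM it went from 84.0 ± 2.8 to 110.8 ± 2.4 (SD, n = 3), with no overlap. PLXND1, the receptor for SEMA3E that is best known from endothelial cells, had 7669, 7842 and 7678 normalised counts in GFP against 10326, 10286 and 10666 in T-MGM (log2 fold change 0.43 ± 0.02 SE, adjusted p = 2.66e-84). In GFP it stood level with NRP2 at 53.5 ± 0.95 TPM (SD, n = 3), within the spread of the latter, and in T-MGM it was at 64.9 ± 3.0 TPM (SD, n = 3), above NRP2.

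PLXNB3, the receptor for SEMA5A, had 3083, 3136 and 3311 normalised counts in GFP against 3497, 3668 and 3500 in T-MGM (log2 fold change 0.16 ± 0.04 SE, adjusted p = 2.14e-05). In TPM the groups overlapped (36.5 in GFP against 35.7 in T-MGM, a log2 difference of -0.03 where the median gene was at -0.14), and after the GC correction the log2 fold change was 0.0055. The annotated span of PLXNB3 overlaps that of SRPK3 on the same strand, and whether reads are shared was not tested. PLXNB1, the receptor for SEMA4D, rose by 0.68 ± 0.21 SE from 82.2 to 131.0 normalised counts, with an adjusted p of 0.0036 that became 0.061 without GFP replicate 2. Its deposited TPM overlapped, at 1.28, 0.35 and 0.74 in GFP against 0.88, 1.67 and 0.75 in T-MGM, and limma on log2(TPM + 1) gave 0.24 with an adjusted p of 0.45. PLXNC1, the receptor for SEMA7A, rose by 0.32 ± 0.07 SE. The plexins together summed to 200.03 ± 3.4 TPM (SD, n = 3) in GFP against 244.6 ± 5.7 TPM (SD, n = 3) in T-MGM, 56.5% and 61.9% of the family. PLXDC1 and PLXDC2, plexin domain proteins first found in tumour endothelium, had at most 26 raw counts in any library, and their log2 fold changes of -1.04 ± 0.89 SE and 0.93 ± 0.62 SE did not pass.

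Ligands and their receptors can be read side by side from these values. For SEMA3A, the ligand, the co-receptor NRP1 and the plexin PLXNA4 were each called higher in counts, with SEMA3A at the highest and NRP1 at the lowest TPM of these genes. NRP1 did not pass in the deposited TPM. Of the other class A plexins, PLXNA2 and PLXNA3 rose by less than 2-fold in counts. PLXNA1, at 13.4 TPM in GFP against 12.5 TPM in T-MGM the most abundant of the class, did not pass. For SEMA4D and PLXNB1 the ligand fell and the receptor rose in counts, both from levels under 1 TPM in GFP, and PLXNB1 did not pass in the deposited TPM. For SEMA4C and PLXNB2 the ligand was slightly lower, at 0.92 times its GFP level, and the receptor higher, at 1.44 times.

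Differences between the groups were not even along the genome, so the surroundings of the members are given beside their own values. The 33 genes lay on 13 chromosomes, and around each of the 31 with an adjusted p the median log2 fold change of all other tested genes within 5 Mb ranged from -0.27 to 0.37. SEMA3B, SEMA3F, SEMA3G and PLXNB1 all lie on the short arm of chromosome 3, where 508 tested genes had a median of 0.24, and 146 of the 162 neighbours of SEMA3B were above 0, with a median of 0.35. Against these surroundings stood 2.46 for SEMA3B, 1.70 for SEMA3G with neighbours at 0.37, 0.68 for PLXNB1 with neighbours at 0.34, and 0.73 for SEMA3F, which did not pass. NRP2 lies on the long arm of chromosome 2, where the arm's median was -0.21 and that of the 70 neighbours of NRP2 was -0.27, and SEMA4C lies on the same arm, with neighbours at -0.22 and a log2 fold change of its own that was closer to 0. Of the 31 members 26 were above the median of their neighbours, including all 19 that rose. These 19 were selected as higher, so a place above medians between -0.27 and 0.37 was likely beforehand. The share of all tested genes that lay above the median of their own neighbours was not computed. The part of neighbouring genes' shared shift in each member's change was not tested.

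SEMA3A lies in a region of few genes, with 19 tested neighbours whose median log2 fold change was -0.0075 and 4 of which were called. Among the called neighbours were CACNA2D1, an auxiliary calcium channel subunit (from 4.91 to 723 mean normalised counts, log2 fold change 7.20), and GNAI1, an inhibitory G protein subunit (from 33.9 to 283, log2 fold change 3.08). SEMA3C and SEMA3D lie in the same window. The plot of neighbouring genes shows a broad shift around SEMA3B and single large changes around SEMA3A.

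**Figure D4:**
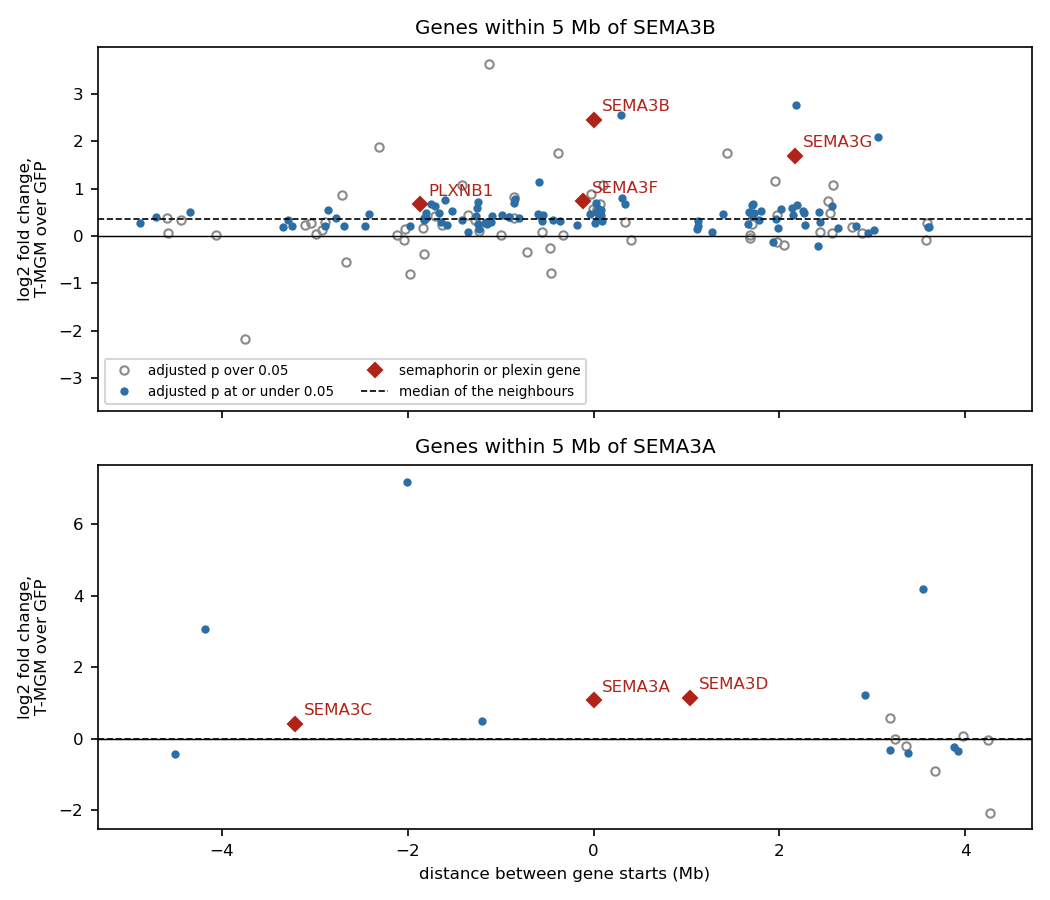
Log2 fold change of T-MGM over GFP for every tested gene within 5 Mb of SEMA3B (top) and SEMA3A (bottom) against the distance between gene starts in Mb; filled points are past the adjusted p, diamonds are semaphorin or plexin genes and the dashed line is the median of the neighbours. Around SEMA3B the median is 0.35 and most points lie above 0, and around SEMA3A it is -0.0075.

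Partners of these receptors and the proteins they act on were taken from a list of 56 genes, of which 50 had an adjusted p, 35 passed it (22 higher, 13 lower) and 6 were called. Their median log2 fold change was 0.13. Beside these counts and those of the subgroups stand the shares over all genes tested, 19.2% higher and 19.2% lower, and over protein-coding genes with a mean of at least 50 normalised counts, 28.0% higher and 29.2% lower. Of the 6 called partners, 4 were higher and 2 lower. The shares called were 3.26% higher and 1.36% lower over all genes tested, and 2.63% higher over the protein-coding genes at that level. Among 15 holoreceptor partners, 4 rose and 8 did not pass. ITGA1, the alpha-1 integrin chain, rose by 1.72 ± 0.12 SE, and ITGB1, the most abundant of this group and the integrin chain through which SEMA7A acts, gave 0.04 ± 0.02 SE and did not pass, but passed as higher after the GC correction (0.17, adjusted p = 2.07e-18). Of 5 growth factors that bind neuropilins, VEGFA rose by 0.38 ± 0.03 SE and PGF, at a mean of 54.0 normalised counts in GFP against 20.7 in T-MGM, fell (log2 fold change -1.40 ± 0.39 SE, adjusted p = 0.0012, and 0.072 without GFP replicate 2).

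The plexin GTPases and their regulators, 17 genes, split into 6 that rose and 7 that fell, each by less than 2-fold. RHOA, the most abundant, rose by 0.39 ± 0.02 SE, with a median of 0.33 among its neighbours on the short arm of chromosome 3. Among 18 cytoskeletal and kinase effectors, 9 rose and 5 fell. DPYSL2 and DPYSL3, collapsin response mediator proteins that relay SEMA3A to microtubules, rose by 1.28 ± 0.04 SE and 1.32 ± 0.05 SE, from 1281 to 3102 and from 893 to 2229 mean normalised counts. FES, a tyrosine kinase that acts below plexin-A1, rose by 2.30 ± 0.20 SE, and CRMP1, of the same family as DPYSL2, had 6, 4 and 4 raw counts in GFP libraries against 0, 0 and 1 in T-MGM libraries, with an adjusted p of 0.040 and no call once any 1 library was left out. CFL1, cofilin, the most abundant effector, rose by 0.31 ± 0.02 SE, the same as the median of its neighbours (0.31), and FURIN, the protease that cleaves class 3 semaphorins, by 0.55 ± 0.03 SE.

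**Figure D5:**
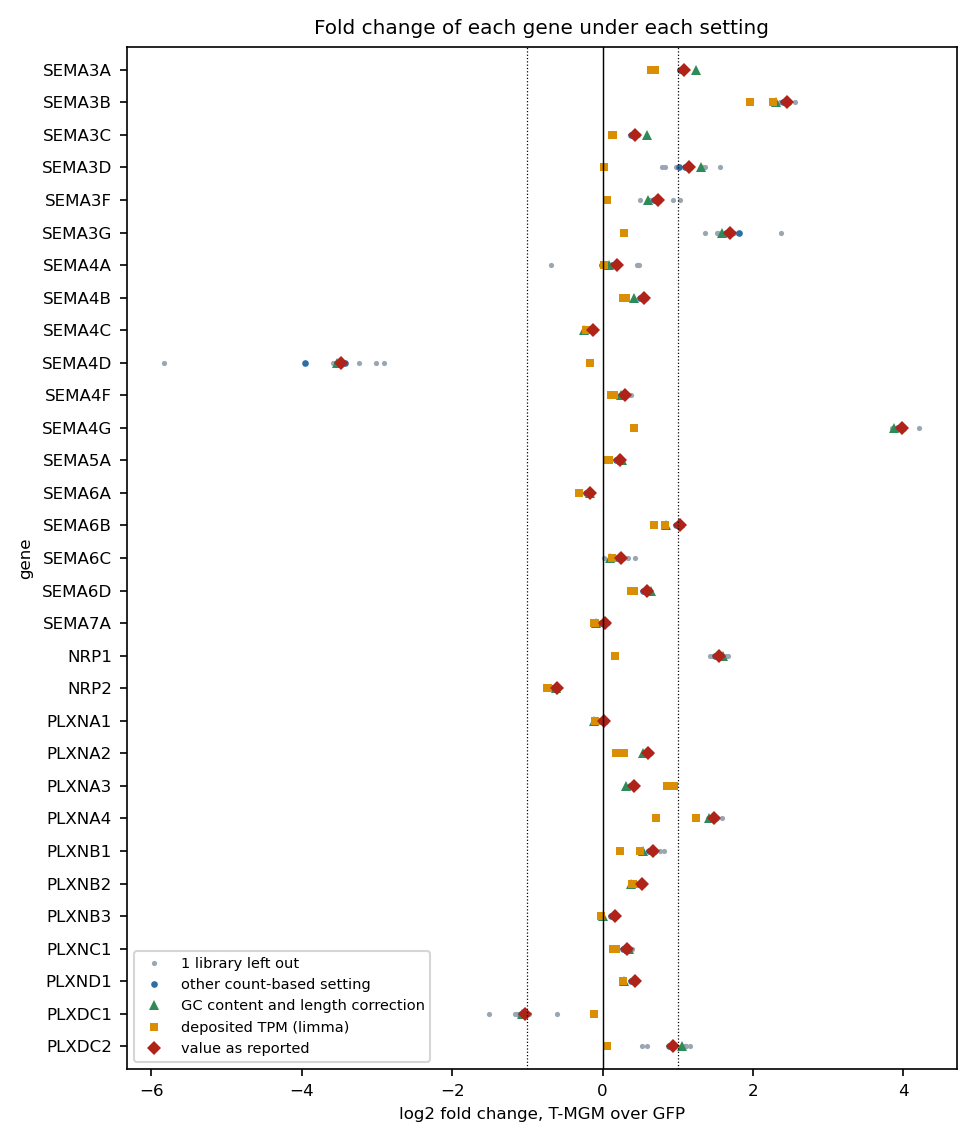
Log2 fold change of T-MGM over GFP for each of the 31 genes as reported (diamonds) and under each other setting: leaving out 1 library, other scalings, filters and tests of the counts, the GC content and length correction, and the deposited TPM with limma. The count-based points of well-counted genes cluster tightly, those of SEMA4D, SEMA4A and SEMA3G spread with single libraries, and TPM points lie nearer 0 for most genes that rose and higher for PLXNA3.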

How the data were processed

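RNA of 6 WM164 libraries was measured. The authors trimmed reads with cutadapt 1.8.1, aligned them with STAR 2.7.7a and quantified genes with RSEM 1.3.0 on GRCh38, per the submitters' processing notes, and deposited whole-number counts and TPM per gene. The study's methods instead name featureCounts, on uniquely aligned reads, for the gene counts. Which tool gave the deposited counts was not tested. The labels give a kit that does not keep strand, the methods one that does. From the deposited counts, DESeq2 1.42.0 (R 4.3.3; Wald test, 2-sided, group only, median-of-ratios size factors, no shrinkage) compared T-MGM with GFP over all genes, with Benjamini-Hochberg adjustment after independent filtering. A gene was called at an adjusted p at or under 0.05 and an absolute log2 fold change over 1. Alternatives were edgeR 4.0.16, other scalings and filters, a replicate block, leaving out each library, a lowess correction for GC content and transcript length, and limma 3.58.1 on log2 of the deposited TPM with a pseudocount of 1 or 0.1, with or without a minimum of 0.5 TPM in 3 libraries. On simulated counts of 32338 genes, each fit found 200 of 200 changed genes, with 6 to 7 false calls. The planted changes were all larger than 2-fold, in genes with a mean of at least 100 normalised counts. Recovery of smaller changes, or of changes at lower counts, was not simulated. There limma was run on simulated counts scaled by library total, not on TPM. Of the gene identifiers, 99.4% matched GENCODE 44. The members, the partner and marker lists and the tests were chosen with earlier results of these data known. Members called, or past the adjusted p with a mean of at least 10 TPM, are given in full, and partners if called or the highest of their group.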

Additional observations from a re-analysis of the deposited data

How the results depend on the processing

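Among the members, 8 called and 23 past the adjusted p became 7 to 8 and 21 to 23 under the count-based alternatives. On the deposited TPM, whose scaling moved the median of genes with at least 50 counts to -0.14 (TPM + 1), -0.15 (TPM + 0.1) and -0.13 (no minimum), 1, 2 and 1 members were called and 11 passed in each (8 higher, 3 lower); only 21 members met the minimum, and NRP1, SEMA3G, SEMA4D and SEMA4G were not among them. Leaving out 1 library gave 7 to 8 members called and 21 to 23 past the adjusted p. The shares of all genes called or past the adjusted p under these alternatives were not computed. Partners called went from 6 to 1 with TPM + 1 and 1 with no minimum; partners past the adjusted p went from 35 to 21 with no minimum, and their share that was higher from 62.9% to 52%, 50% and 38.1% in the TPM settings. With 1 library left out, 4 to 5 partners were called and 31 to 34 passed. The replicate numbers did not pair the libraries (correlation of same-numbered deviations -0.058 to 0.029): with the replicate block, 8 members were called and 22 passed, 5 partners were called and 32 passed, SEMA4C missed the threshold (adjusted p = 0.058) and SEMA4A reversed to -0.014.

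Reversed log2 fold changes were those of PLXNA1 (-0.029 with library totals, -0.11 after the GC correction, -0.096, -0.10 and -0.096 in the TPM settings), SEMA7A (-0.022, -0.090, and -0.099, -0.11 and -0.099), PLXNB3 (-0.027 in each TPM setting) and SEMA4A, which ranged from -0.69 to 0.49 with 1 library left out. Each of these TPM values lies above the median gene of its setting. The causes were not tested. Counts under about 100 per library limit NRP1, SEMA3G, SEMA4D, SEMA4G, PLXNB1 and the other low members; absence of a call there says only that no change was detectable at this depth.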
